A study of Mus musculus with 2 samples.

Results

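The genes examined here are 45 genes of T-cell receptor (TCR) signalling, from the CD3 chains of the receptor to the transcription factors at the end of its pathways. They were taken from a list of gene symbols, and 44 of them had a probe set among the 19505 genes named on the array, while Nfkb1 had none named here and was not analysed. Each of the 44 was measured by 1 probe set. All 44 lay above background on both arrays, with a lowest level of 6.04 against background bounds of 4.35 and 4.36. Levels are given on the log2 scale, CTXpre first, and differences as CTXpre/CD4post minus CTXpre.

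The cells were endogenous CD8+ T cells, which belong to the treated mouse itself and not to the transferred graft. Female C57BL/6 mice, 6 to 8 weeks old, carried B16F10 melanoma from an intradermal injection of 200000 cells on day 0. Every mouse received 300 mg/kg cyclophosphamide on day 3, 2000000 Thy1.1 Pmel-1 T cells, which bear a transgenic TCR for a melanoma antigen, on day 5, and 10000 IU of IL-2 daily for 3 days. This was the whole regimen of the CTXpre group, and the CTXpre/CD4post group also received 200 µg of the depleting anti-CD4 antibody GK1.5 on days 10, 17 and 24. On day 25, CD8+ cells lacking Thy1.1 were sorted from inguinal lymph nodes and spleen. Cells of 5 mice were pooled for 1 Clariom S array per group, so no spread between mice was measured, no difference has a replicate check and no test was possible. In RNA from a sorted population, fewer cells of a type and less RNA per cell cannot be told apart.

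A T cell senses peptide on MHC molecules through its TCR, whose signal is carried by the CD3 chains and the zeta chain. Kinases phosphorylate these tails, Zap70 binds them, and the adaptors Lat and Lcp2 (SLP-76) assemble a complex that starts 3 branches, namely calcium with NFAT, protein kinase C theta with NF-kappa-B, and Ras with the MAP kinases. Phosphatases, ubiquitin ligases and diacylglycerol kinases restrain each step. Most of this control acts on protein phosphorylation, which an array of RNA does not measure.

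The 12861 genes that passed the background bound on 1 array or both had a median difference of 0.0098, the robust SD of the differences was 0.25 and their central 95% ran from -0.66 to 0.63. The sorted cells had high Cd8a (11.47 and 11.72) and Cd8b1 (11.70 and 11.80). Genes of other cell types were also above background, since all 10 dendritic-cell and all 6 measured MHC class II genes passed the bound on at least 1 array, with median differences of -0.75 and -0.80. The summed linear level of the MHC class II genes was 8250 in CTXpre and 4809 in CTXpre/CD4post, that of the dendritic-cell genes 3856 and 2674, that of 10 myeloid genes 1302 and 764, and that of 11 B-cell genes 1312 and 1032. No measured gene of these 4 lists was at background on both arrays. Of 4 measured natural killer markers, Ncr1 (3.38 and 3.45) and Klra9 (3.70 and 3.58) were at background on both arrays, Klre1 was above it on both (5.22 and 5.26), and Klrb1c was above it in CTXpre alone (5.30 and 4.31). The CD4+ T-cell gene Cd4 had levels of 7.55 and 5.98, while the other measured genes of its list were higher, Cd40lg at 4.02 (not above background) and 5.82 and Zbtb7b at 5.81 and 6.17. This list of 3 measured genes had a median difference of 0.36 and summed to 259 and 191. The levels of 9 proliferation genes had a median difference of 0.77 and those of 8 immediate early genes one of -0.45. The part of any of these shifts in the values below was not tested.

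To examine whether the RNA of the TCR machinery differed after anti-CD4 treatment, the members were compared one by one. The machinery was nearly level between the libraries. Trat1, a transmembrane adaptor of the TCR complex, was 1.95-fold higher in the CTXpre/CD4post library and was the only member past 1.5-fold in either direction, while 3.08% of genes above background were that much higher and 3.37% that much lower. At a lower threshold of 1.2-fold, a difference of 0.26, 4 members were higher (Trat1, Sit1, Ppp3ca and Bcl10) and 1 was lower (Ptpn22). These counts are 9.09% and 2.27% of the 44 members, and the same rule takes in 15.4% and 15% of genes above background, so the share of members past it was smaller than that of other genes in each direction. None of the 44 reached 2-fold, as 0.552% of genes did upward and 0.537% downward.

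**Figure D1:**
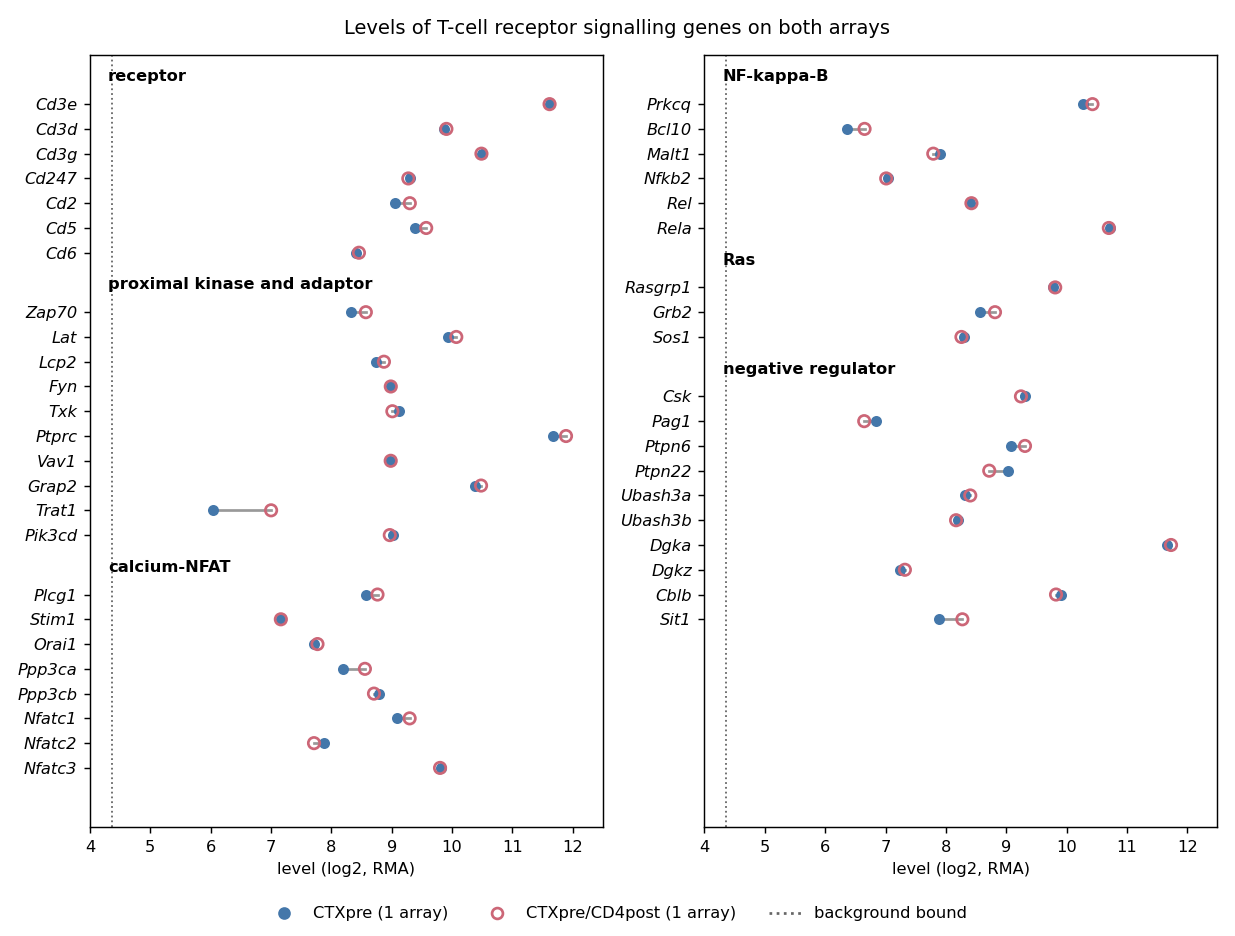
Log2 level of each of the 44 measured members on the CTXpre array (filled points) and the CTXpre/CD4post array (open points), by group, with the background bound as a dotted line. Most pairs of points coincide, and Trat1 has the widest gap, from 6.04 to 7.00.

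The median difference of the members was 0.038. Their median absolute difference was 0.087, compared with 0.17 over all genes above background and 0.12 over those of mean level 8 or more. Of the 44 members, 24 (54.5%) differed by less than 0.1, as did 31.9% of genes above background. A difference above 0 was found in 25 members (56.8%), beside 51.6% of those genes. Members are bright genes, and bright probe sets vary less between arrays, so the 35 members with a mean level of at least 8 were also set beside the 2199 genes of that brightness, a limit chosen after the levels were seen. Here 20 members (57.1%) differed by less than 0.1, beside 44.2% of genes, and 21 lay above 0, beside 57% of genes. Of these 35 members, 2 were at least 1.2-fold higher and 1 lower, with 9.87% and 7% of the bright genes past the same limits. The shares above 0 were close to those of other genes, and differences under 0.1 were more frequent among members in both comparisons. The levels of 3 members (Cd3e, Ptprc and Dgka) were above 11 on both arrays, as were the mean levels of 0.743% of probe sets, and whether probe sets this bright still respond in proportion to RNA was not tested.

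**Figure D2:**
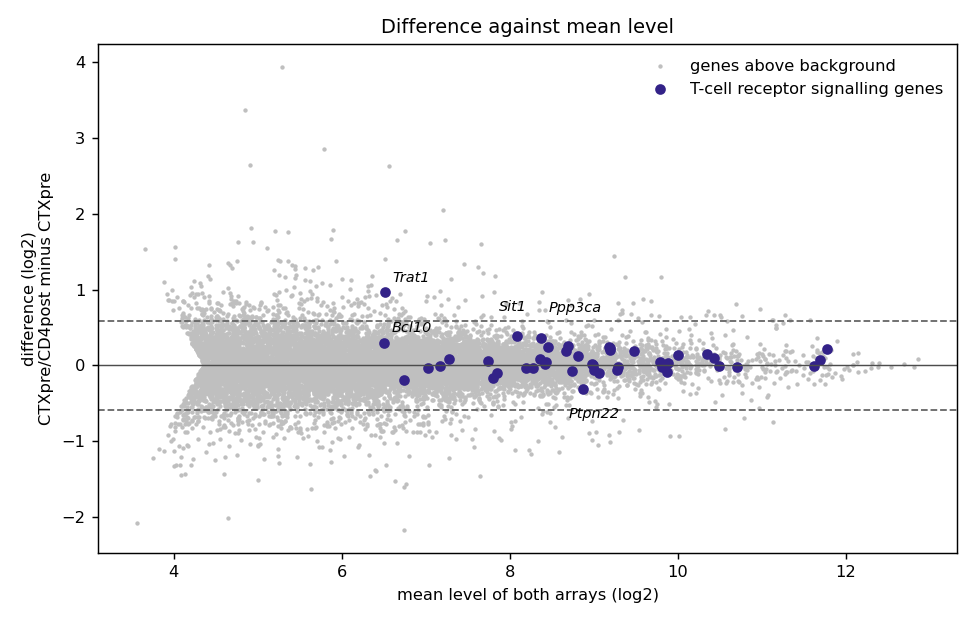
Difference (CTXpre/CD4post minus CTXpre, log2) against the mean log2 level of both arrays for 12861 genes above background (grey) and the 44 members (dark), with 1.5-fold as dashed lines. The members lie close to 0 except Trat1 at 0.96, and the spread of the grey points narrows as the level increases.

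The receptor group was flat in its CD3 core. Its 7 members had a median difference of 0.035, from -0.027 to 0.25, and none reached 1.2-fold. Cd3e, whose epsilon chain pairs with both other CD3 chains, had a level of 11.62 on both arrays. Cd3g had levels of 10.50 and 10.49, and Cd3d 9.87 and 9.91. Cd247, which encodes the zeta chain with the most signalling motifs of the complex, had levels of 9.30 and 9.27. All 4 chains of the signalling complex thus differed by less than 0.04, while the widest gaps of the group were in accessory receptors. Cd2, the adhesion receptor that binds CD48 in mice, had levels of 9.05 and 9.30, 1.19-fold higher, just short of the 1.2-fold limit. Cd5, a scavenger-type receptor that dampens the signal and whose surface level follows TCR signal strength in thymocytes, had levels of 9.39 and 9.57. Its relative Cd6, a receptor for CD166, had 8.41 and 8.46. In the same libraries Cd8a differed by 0.25 and Cd8b1 by 0.10.

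Among proximal kinases and adaptors, Trat1 stood apart and the other members differed by -0.11 to 0.24. The 10 members had a median difference of 0.11, the highest of the 6 groups. Of these, 7 lay above 0, beside 51.6% of genes above background and 57% of bright ones. Trat1, which encodes TRIM, a disulfide-linked dimer in the plasma membrane that associates with the TCR and the zeta chain, had levels of 6.04 and 7.00. Its difference of 0.96 ranked 80 of 12861 genes above background, counted from the highest. Both of its levels were well over the bounds, so the fold was measured on both sides. With 32 added to the linear values, a setting that damps dim probe sets, the difference was 0.71. Next came Zap70, the kinase that docks on phosphorylated CD3 and zeta tails, with levels of 8.33 and 8.57, and Ptprc, the phosphatase CD45 that sets the activity of Src kinases, with 11.67 and 11.89. These were 1.18-fold and 1.16-fold higher.

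The scaffold genes of the same group moved less. Lat, the membrane platform phosphorylated by Zap70, had levels of 9.93 and 10.07. Lcp2, which encodes SLP-76, had 8.75 and 8.87, and Grap2, the bridging adaptor GADS that joins both, had 10.38 and 10.48. The 3 partners of this complex were each 1.07-fold to 1.10-fold higher. Vav1, a guanine nucleotide exchange factor that connects the complex to actin, had levels of 8.97 and 8.98. Fyn, a Src family kinase, had 8.99 and 8.98, so these genes were level. Pik3cd, the leukocyte catalytic subunit of phosphoinositide 3-kinase, had levels of 9.03 and 8.97. Txk, a Tec family kinase of T cells, had 9.12 and 9.01, the lowest difference of the group at -0.11.

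**Figure D3:**
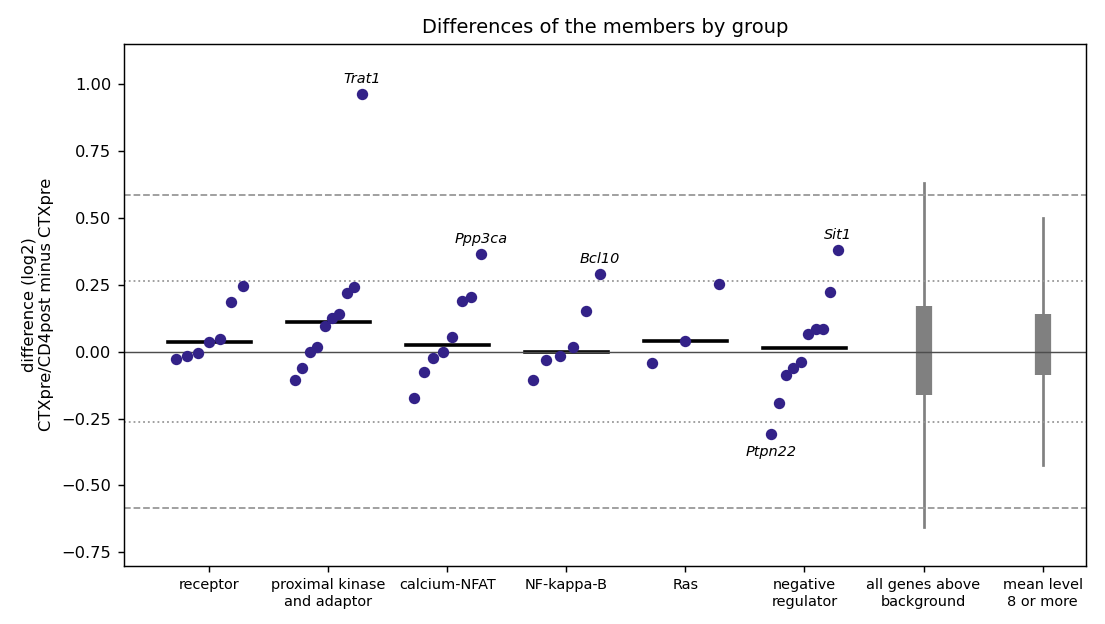
Difference of each member (points, log2, CTXpre/CD4post minus CTXpre) by group, with the group median as a bar, 1.2-fold as dotted lines and 1.5-fold as dashed lines. The columns at the right give the middle 50% (thick) and central 95% (thin) of the differences of all genes above background and of those with a mean level of 8 or more; Trat1 alone lies past 1.5-fold.

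In the calcium and NFAT branch the channel genes were flat and the calcineurin subunits differed from each other. The 8 members had a median of 0.026, with 4 above 0 and 4 below. Of genes above background, 51.6% lay above 0. Plcg1, the phospholipase that cleaves a membrane lipid to start calcium release, had levels of 8.57 and 8.76. Stim1, the calcium sensor of the endoplasmic reticulum, had 7.17 and 7.16, and Orai1, the pore it opens, 7.71 and 7.77. Neither part of the channel differed by as much as 0.1. Ppp3ca, a catalytic subunit of the phosphatase calcineurin, had levels of 8.19 and 8.56, 1.29-fold higher, and ranked 107 of the 2199 bright genes from the highest. The other catalytic subunit on the list, Ppp3cb, had 8.78 and 8.71. The NFAT factors, which calcineurin dephosphorylates so that they enter the nucleus, did not share a direction. Nfatc1 had levels of 9.09 and 9.30, Nfatc2 7.88 and 7.71, and Nfatc3 9.82 and 9.80, giving differences of 0.20, -0.17 and -0.024.

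The NF-kappa-B branch had a median difference near 0, at -0.00062 over its 6 measured members. Of these, 3 were above 0, as were 51.6% of genes above background. Prkcq, which encodes protein kinase C theta, had levels of 10.27 and 10.43. Bcl10, the filament-forming adaptor that carries the signal of this kinase to the IkappaB kinase, had levels of 6.36 and 6.65, 1.22-fold higher. The setting that damps dim probe sets gave 0.21, under the 1.2-fold limit. Malt1, the protease bound to Bcl10, had levels of 7.90 and 7.79. Its difference of -0.11 was within the robust SD of 0.25 over genes above background. The NF-kappa-B subunits themselves were level. Rela had levels of 10.72 and 10.70, Rel 8.41 and 8.42, and Nfkb2, the precursor of the p52 subunit, 7.04 and 7.01.

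The Ras group was small and mixed, with a median of 0.041 over 3 genes. Rasgrp1, the diacylglycerol-activated exchange factor that loads Ras in T cells, had levels of 9.77 and 9.81. Grb2, an adaptor that brings Sos1 to Lat, had 8.56 and 8.81, 1.19-fold higher and just short of the 1.2-fold limit. Its partner Sos1 had 8.30 and 8.26. The difference of Sos1, -0.041, was small beside the robust SD of 0.17 among genes of mean level 8 or more, so its direction is not settled.

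Negative regulators went both ways, with 5 of 10 members above 0, 5 below and a median of 0.013. The share above 0 among genes above background was 51.6%. Ptpn22, a phosphatase that removes activating phosphates from Src kinases and Zap70, had levels of 9.03 and 8.72. It was 1.24-fold lower and had the lowest difference of the 44 members, ranking 123 of the 2199 bright genes counted from the lowest. Csk, the kinase that inhibits Src kinases and can bind Ptpn22, had levels of 9.31 and 9.24. Pag1, a membrane adaptor that can recruit Csk, had 6.84 and 6.65. Their differences were -0.061 and -0.19. At the other end, Sit1, a transmembrane adaptor that binds SH2-domain phosphatases and restrains TCR signals, had levels of 7.89 and 8.27, 1.30-fold higher. Ptpn6, the phosphatase SHP-1, had 9.09 and 9.31. Ptpn6 is expressed across leukocytes and not in T cells alone, as are Ptprc, Csk, Grb2 and Pik3cd among others. The part of other cell types in the difference of any member, Ptpn22 included, was not tested.

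The other inhibitors were level. The paralogous phosphatases Ubash3a and Ubash3b (the proteins TULA and TULA-2) had levels of 8.32 and 8.40, and of 8.21 and 8.17. The diacylglycerol kinases, which end the lipid signal to Rasgrp1 and Prkcq, were Dgka, with 11.67 and 11.73, and Dgkz, with 7.24 and 7.32. Cblb, a ubiquitin ligase that raises the threshold of activation, had 9.91 and 9.83. Each of these 5 differed by less than 0.1.

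Promoter windows are printed for the members with the highest differences (Trat1 and Sit1), for the lowest (Ptpn22) and for both NF-kappa-B subunit genes with a kappa-B match in the window (Rel and Nfkb2). Each is the 250 bases before the RefSeq start site farthest upstream, in the build GRCm38.p6, written from 5′ to 3′ on the gene's strand. Capitals mark matches, on either strand, to the NFAT core (GGAAA), the AP-1 motif (TGANTCA) and the kappa-B consensus.
Trat1, chr16:48772063-48772312, reverse strand: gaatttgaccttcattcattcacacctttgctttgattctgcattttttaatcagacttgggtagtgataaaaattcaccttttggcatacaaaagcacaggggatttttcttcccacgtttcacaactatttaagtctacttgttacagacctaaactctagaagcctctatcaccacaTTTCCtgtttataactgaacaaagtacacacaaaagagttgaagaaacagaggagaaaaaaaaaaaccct
Sit1, chr4:43483710-43483959, reverse strand: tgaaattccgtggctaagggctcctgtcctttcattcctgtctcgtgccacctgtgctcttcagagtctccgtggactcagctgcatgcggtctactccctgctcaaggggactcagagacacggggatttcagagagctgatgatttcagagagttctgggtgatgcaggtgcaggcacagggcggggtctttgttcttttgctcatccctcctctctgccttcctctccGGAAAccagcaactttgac
Ptpn22, chr3:103859545-103859794, forward strand: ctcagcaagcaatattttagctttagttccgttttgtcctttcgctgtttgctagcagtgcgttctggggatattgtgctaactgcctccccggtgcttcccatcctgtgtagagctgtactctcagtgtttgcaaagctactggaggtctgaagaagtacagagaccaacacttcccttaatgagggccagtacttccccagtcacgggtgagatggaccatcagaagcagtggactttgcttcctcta
Rel, chr11:23770970-23771219, reverse strand: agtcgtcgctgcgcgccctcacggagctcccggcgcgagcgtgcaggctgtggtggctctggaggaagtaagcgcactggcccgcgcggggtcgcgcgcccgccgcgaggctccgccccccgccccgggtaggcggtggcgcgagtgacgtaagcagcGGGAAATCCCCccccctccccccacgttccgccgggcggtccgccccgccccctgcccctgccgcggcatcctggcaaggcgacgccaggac
Nfkb2, chr19:46304487-46304736, forward strand: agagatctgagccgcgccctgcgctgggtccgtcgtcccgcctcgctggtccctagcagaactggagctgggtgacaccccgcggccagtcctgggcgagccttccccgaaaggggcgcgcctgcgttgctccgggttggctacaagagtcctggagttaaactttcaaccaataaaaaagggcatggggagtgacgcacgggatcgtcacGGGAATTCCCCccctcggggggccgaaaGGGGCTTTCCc

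The windows of Trat1 and Sit1 each held 1 NFAT core and no AP-1 or kappa-B match, and the printed window of Ptpn22 held no match to any of the 3 motifs. Ptpn22 has 2 listed start sites, and the window of the other held 1 NFAT core, so this absence depends on the start chosen. Nfkb2 has 3 listed start sites, of which only the farthest upstream is printed. The window of Rel held 2 overlapping kappa-B matches, which also contain its 1 NFAT core, and that of Nfkb2 held 3 kappa-B matches, 2 of them overlapping, and 1 NFAT core inside the third. Of the 44 measured members, 38 had an entry in the RefSeq promoter table, with 56 start sites in all. The NFAT core was in 66.1% of these 56 windows and in 55.6% of all 32851 windows, the kappa-B consensus in 10.7% and 7.25%, and the AP-1 motif in 1.79% and 6.75%. The kappa-B matches lay in 4 genes, Rel, Nfkb2, Bcl10 and Pik3cd, whose differences were 0.017, -0.032, 0.29 and -0.061. A match describes letters in the window and no binding was measured here.

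Another 92 genes of the pathway, taken from the textbook scheme of the pathway, were examined in the same way. A probe set was named here for 79 of them and 78 were above background on at least 1 array, while the other 13, Lck among them, were not analysed. Over the 78 genes the median difference was 0.058, with 50 above 0 (64.1%, beside 51.6% of all genes above background). At 1.2-fold, 12 were higher (15.4%) and 5 lower (6.41%), beside 15.4% and 15% of genes above background. At 1.5-fold by measured levels, 2 were higher and 2 lower (2.56% each), beside 3.08% and 3.37%, and 1 of the lower genes had both levels above background. The share above 0 was over that of all genes above background, and the share 1.2-fold lower was under it. Bright genes, with a mean level of 8 or more, lay above 0 in 57% of cases. Past 1.2-fold, 9.87% of bright genes went up and 7% went down, the latter close to the 6.41% here. These 78 genes mix bright and dim probe sets and were not matched for level. The part of level in either contrast was therefore not tested.

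The 2 higher genes were both from the list of other negative regulators, in which 14 of 22 measured genes lay above 0 and 8 below. Cish, a cytokine-induced member of the SOCS family that also restrains TCR signalling in CD8+ T cells of mice, had levels of 5.25 and 5.95, 1.63-fold higher. Dok2, an adaptor that dampens TCR signals, had 8.99 and 9.58, 1.51-fold higher and barely past the limit. The genes lower by measured levels belonged to the Ras and MAP kinase list. Nf1, the GTPase activator neurofibromin, had levels of 5.96 and 5.07, 1.85-fold lower. Mapk8, the kinase JNK1, had 4.73 and 3.42, the latter not above background, so it was at least 1.29-fold lower. Mapk9, its paralog JNK2, had 7.45 and 6.90, 1.47-fold lower and just short of 1.5-fold.

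By branch, the other proximal genes had a median difference of 0.14 with 18 of 23 above 0 (78.3%, beside 51.6% of all genes above background and 57% of bright ones), among them the costimulatory receptor Cd28 (8.65 and 9.05). The calcium genes had a median of 0.036, with Calm3, a calmodulin gene, at 9.61 and 10.09 and 1.39-fold higher. The remaining calcineurin genes were level or slightly lower, at 8.46 and 8.32 for Ppp3cc and at 8.71 and 8.72 for the regulatory subunit Ppp3r1. The NF-kappa-B genes had a median of 0.030. The inhibitor Nfkbia, itself an NF-kappa-B target, had levels of 8.73 and 8.90, and Tnfaip3, the deubiquitinase A20, 9.68 and 9.61. The Ras and MAP kinase genes had a median of -0.037 with 4 of 12 above 0 (33.3%), and the other negative regulators one of 0.071 with 14 of 22 above 0 (63.6%), Rnf128 included, which was not above background. Between the same libraries the lists of dendritic-cell, MHC class II, myeloid and B-cell genes had medians of -0.75, -0.80, -0.59 and -0.35. The 6 measured CD8 T-cell markers of the sort had a median of 0.068, from -0.015 to 0.38, with Thy1 the highest.

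**Figure D4:**
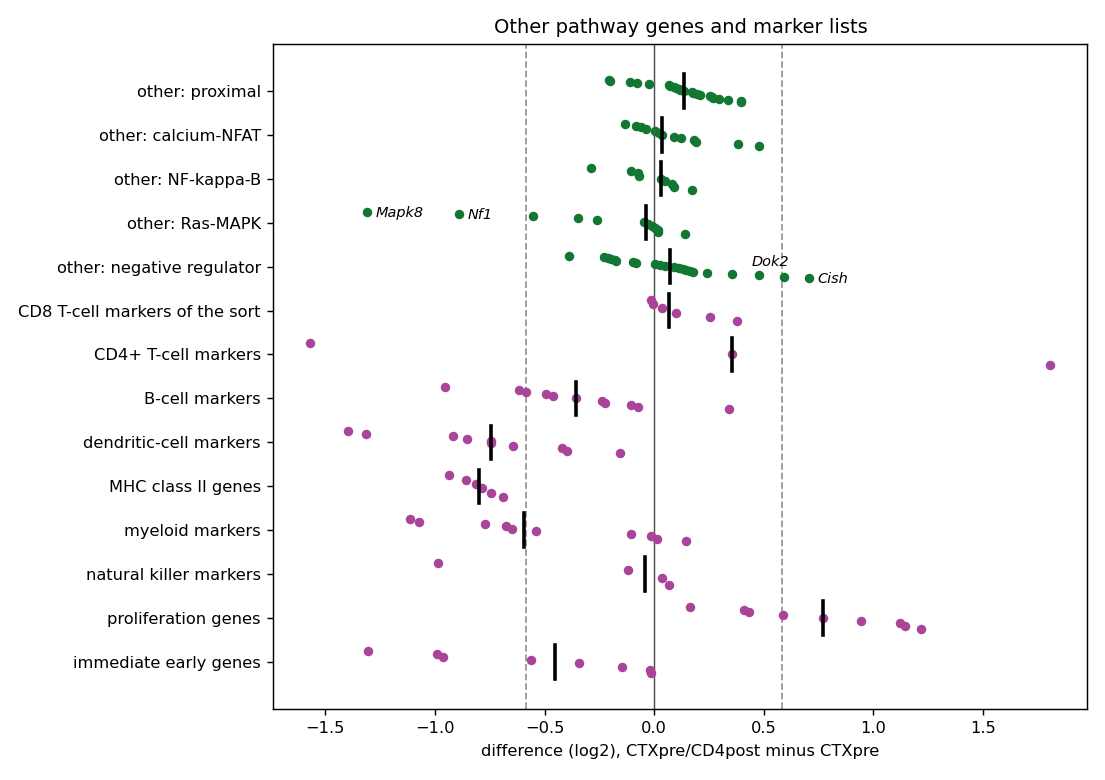
Difference of each measured gene (points, log2, CTXpre/CD4post minus CTXpre) in the other pathway lists (green) and the marker lists (purple), with list medians as bars and 1.5-fold as dashed lines. The pathway lists centre near 0, between -0.037 and 0.14, whereas the dendritic-cell, MHC class II and myeloid lists centre below -0.5 and the proliferation list at 0.77.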

How the data were processed

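The authors deposited log2 levels from the RMA method of Affymetrix Power Tools. RMA corrects background, forces both arrays to 1 common distribution and combines the probes of each probe set, so a shift in total RNA is not visible. Tool versions and the genome build, not given in the sources used here, are left out. In all, 0 columns with per-sample values were unused. Groups came from the treatment labels, with 1 array each of cells pooled from 5 mice. The number of arrays limits the precision, and replicate error could not be estimated.

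Of 22206 probe sets, 19572 carried 1 gene symbol in the platform annotation, 0 several, and 2634 are unnamed here. For a gene with several probe sets, the one with the highest mean level was kept. The background bound was the 95th percentile of 1450 olfactory, vomeronasal and taste receptor probe sets on each array. A gene above it on 1 array only has its fold computed from the bound or the dim level, whichever was higher, as at least N-fold. Python 3.11.15 with pandas 2.3.3 and statsmodels 0.14.6 gave differences, medians and counts at 1.2-fold, 1.5-fold and 2-fold, beside the same over all genes above background. No p-value was computed. Simulated differences with known shifts were used to check mean differences only, and the counts past each fold and the background rule were not checked.

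All members are named, with the other pathway genes past 1.5-fold. Mapk9, Cd28, Calm3, Ppp3cc, Ppp3r1, Nfkbia and Tnfaip3 were named after their values were seen. The members and lists were chosen with earlier results of these data known. Promoter sequences are from RefSeq (GRCm38.p6), with motifs searched on both strands of 250 bases. Alternatives were centring, quantile normalization, a lowess trend removed (fraction 0.3), 32 added to the linear values, the mean over probe sets, other background rules (both arrays, or the 99th percentile), means, and each group left out.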

Additional observations from a re-analysis of the deposited data

How the results depend on the processing

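Under quantile normalization, lowess, 32 added to the linear values, means in place of medians, each group left out and, for the other pathway genes, both background rules, all 55 medians and counts stayed within 0.1, or within 1.5 times for counts. So did those under centring, which shifts every gene alike. The tolerance of 0.1 is wide beside group medians of -0.00062 to 0.11, so a median could change sign within it. The mean over probe sets and both background rules could not move a value of the members, since each has 1 probe set and passes every bound. The median of all members ran from 0.012 to 0.076. Members at least 1.2-fold higher numbered 3 to 4 and members lower 1, and Trat1 stayed the single member past 1.5-fold. The medians of the NF-kappa-B (-0.019 to 0.051), Ras (-0.0037 to 0.084) and negative regulator (-0.012 to 0.015) groups crossed 0, so their sign depended on the processing. Every setting reuses the same arrays without replicates, so the sign of no group median is settled. Of 132 values of single members under quantile normalization, lowess and 32 added, 131 moved by less than 0.1, the exception being Trat1 with 32 added, at 0.71. Without Trat1 the median of the proximal group was 0.097 and that of all members 0.035, and with only the members of mean level 8 or more the median was 0.041, settings chosen after seeing the data. No paired analysis was possible because each group has 1 array. With 32 added, the genes above background at least 1.5-fold higher and lower numbered 120 and 109, compared with 396 and 433. Bcl10, Grb2 and Cd2 lie next to the 1.2-fold limit, and the replicate spread is unknown.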
